A study of Homo sapiens with 15 samples.

Results

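The lamins and the proteins that sit with them at the inner nuclear membrane were followed through 10 genes, LMNA, LMNB1, LMNB2, LBR, TMPO, EMD, LEMD3, BANF1, SUN1 and SUN2, in IMR90, a cell line of fibroblasts established from human fetal lung. The genes were taken by symbol after the Ensembl identifiers of the count table had been paired with symbols. They are 10 of 57736 genes in the table, and all 10 were among the 15994 genes with enough counts to be tested. Total RNA was sequenced as 75-bp read pairs in 15 libraries, which form 5 groups of 3. One group held senescent cells with shTXNRD1, a short hairpin against TXNRD1, the cytosolic thioredoxin reductase. Another held senescent cells that received Tri-1, which inhibits the enzyme that TXNRD1 encodes. The other groups were senescent cells with the solvent DMSO, senescent cells in the control condition, and growing cells in the control condition. All groups share the same cell line. How the cells became senescent, how much Tri-1 they received and for how long, what the control condition of the hairpin contained, and whether replicates were separate cultures are not in the labels, so p-values measure the spread between these libraries. The study asked how blocking TXNRD1 changes gene expression in senescent cells.

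Lamins are intermediate filament proteins that form a meshwork under the inner nuclear membrane. LMNA encodes the A-type lamins A and C, and LMNB1 and LMNB2 encode the B-type lamins, which stay anchored to the membrane by a farnesyl group. LBR, the lamin B receptor, binds B-type lamins and heterochromatin and also carries a sterol reductase domain. TMPO, EMD and LEMD3 encode lamina-associated polypeptide 2, emerin and MAN1, whose LEM domains bind BANF1, the small DNA-binding protein also called BAF. SUN1 and SUN2 span the inner membrane and pair with nesprins of the outer membrane to link the lamina to the cytoskeleton. Loss of lamin B1 is a widely used mark of senescence in fibroblasts.

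In senescent control cells the transcripts of LMNB1, TMPO and LBR were 9.81-, 3.47- and 3.37-fold lower than in growing cells, those of LMNB2, BANF1 and SUN1 were lower by smaller factors, and none of the 10 genes was higher. In senescent cells with the TXNRD1 hairpin, LMNA was 2.64-fold lower and LEMD3 1.42-fold higher than in senescent control cells, while LMNB1 stood at 6.07 ± 0.797 CPM, against 5.88 ± 0.293 CPM in senescent control cells (SD, n = 3 each). LMNB2 and LBR were also lower with the hairpin, by calls that some alternatives lost. In senescent cells with Tri-1, LMNB1, TMPO and SUN1 were lower than with DMSO. DMSO cells had higher LMNB1, TMPO and SUN1 than senescent control cells. LMNB1 stood at 6.22 ± 0.527 CPM in Tri-1 cells (SD, n = 3), and these libraries overlapped those of senescent control cells. Tri-1 cells were not tested against senescent control cells.

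Promoter sequences are shown for LMNB1 and TMPO, which were called in the same direction in senescence, in Tri-1 over DMSO and in DMSO over senescent control. They are also shown for LBR, which fell in senescence too. In the model of all libraries LBR was called in neither Tri-1 over DMSO nor DMSO over senescent control. The last sequence is that of LEMD3, which rose with the hairpin. Each is the 250 bases before an annotated start, 5′ to 3′ on the strand of the gene, from RefSeq on GRCh38.p14. Capitals mark matches, on either strand, to CCAAT, to the cell cycle genes homology region TTTGAA, to the E2F spellings TTTGGCGC, TTTCCCGC, TTTGCCGC and TTTCGCGC, or to the GC box GGGCGG. LMNB1 has 2 starts in this table and TMPO has 2, and the LMNB1 start shown is the downstream one, chr5:126776886-126777135 on the plus strand. The TMPO sequence is chr12:98515323-98515572 (plus), that of LBR is chr1:225428822-225429071 (minus) and that of LEMD3 is chr12:65169333-65169582 (plus).
LMNB1: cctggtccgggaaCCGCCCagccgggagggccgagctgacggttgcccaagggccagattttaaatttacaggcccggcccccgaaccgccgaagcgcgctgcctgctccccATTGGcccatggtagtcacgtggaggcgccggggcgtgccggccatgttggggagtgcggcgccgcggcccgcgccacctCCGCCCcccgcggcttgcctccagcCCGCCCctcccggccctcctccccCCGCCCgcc
TMPO: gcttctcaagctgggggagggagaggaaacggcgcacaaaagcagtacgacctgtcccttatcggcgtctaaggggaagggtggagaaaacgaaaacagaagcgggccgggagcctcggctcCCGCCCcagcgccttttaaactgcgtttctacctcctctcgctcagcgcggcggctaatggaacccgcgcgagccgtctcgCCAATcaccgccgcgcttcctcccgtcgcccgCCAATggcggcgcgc
LBR: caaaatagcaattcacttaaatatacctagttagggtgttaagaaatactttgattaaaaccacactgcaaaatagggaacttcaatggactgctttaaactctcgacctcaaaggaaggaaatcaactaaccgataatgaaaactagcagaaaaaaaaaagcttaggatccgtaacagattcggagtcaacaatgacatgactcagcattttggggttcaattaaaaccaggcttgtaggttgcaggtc
LEMD3: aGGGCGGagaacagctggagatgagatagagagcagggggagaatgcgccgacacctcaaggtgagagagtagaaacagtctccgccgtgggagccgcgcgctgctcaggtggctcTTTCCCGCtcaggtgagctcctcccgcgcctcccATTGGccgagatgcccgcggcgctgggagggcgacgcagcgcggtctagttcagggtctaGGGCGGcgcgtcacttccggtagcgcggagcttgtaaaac

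The downstream LMNB1 window held 1 CCAAT match, beginning 138 bases before the start on the reverse strand, and 4 GC boxes. The TMPO window held 2 CCAAT matches, beginning 47 and 15 bases before the start. The LEMD3 window held 1 CCAAT match and 1 E2F spelling, and the LBR window and the upstream LMNB1 window held none of the letters searched. Of the 10 genes, 9 were found in this table (not SUN1), with 1 to 3 starts each and 15 windows in all. CCAAT was in 7 of the 15 windows, TTTGAA in 2 (LMNB2 and SUN2), an E2F spelling in 2 (LMNA and LEMD3) and a GC box in 12. The 2 TMPO windows overlap and hold the same CCAAT and GC box matches, which these counts include for each window. By gene, 6 had CCAAT and 7 a GC box in at least one window. In LMNA the E2F spelling overlaps the GC box. Over 35116 single RefSeq windows of the same length, to be set beside the counts of windows and not of genes, 32.0% held CCAAT, 13.3% TTTGAA, 2.79% an E2F spelling and 42.6% a GC box. These matches describe letters in a window and say nothing of binding.

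The libraries held 18033076 to 28909046 counts. TXNRD1 itself stood at 21.0, 21.6 and 25.3 CPM in the 3 shTXNRD1 libraries, against 506, 511 and 528 CPM in the senescent control libraries (CPM is the usual scaled share of a library's total, here with totals adjusted by the TMM method), 22.7-fold lower with the hairpin. All 8 fibroblast markers were present in every group, but their summed level moved with the groups. It was 11616 to 15186 CPM in shTXNRD1 cells, 11167 to 11922 in Tri-1 cells and 14611 to 17204 in DMSO cells. In senescent control cells it was 16179 to 18848 CPM, and in growing cells 15980 to 21313. The 4 lung epithelial markers summed to at most 0.446 CPM, and PTPRC, which defines leukocytes, averaged at most 0.197 CPM in any group. Other marker lists moved with the groups too. The 6 leukocyte markers summed to 19.1 to 38.8 CPM in shTXNRD1 cells, 91.5 to 93.3 in Tri-1 cells, 56.6 to 73.9 in DMSO cells, 72.2 to 80.6 in senescent control cells and 15.6 to 26.0 in growing cells. CD68, a lysosomal membrane gene, made up nearly all of that sum, and the 5 others averaged under 1 CPM in every group. The 6 epithelial markers summed to 45.8 to 82.8 CPM over all libraries, mostly KRT18, and the 5 endothelial markers matched to 0.595 to 9.81 CPM, highest in the shTXNRD1 libraries. The part of these genes in the results was not tested. In bulk RNA, fewer cells that express a gene and less RNA of it per cell cannot be told apart.

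The 10 genes differed in how closely their replicates repeated. The transcripts of LMNA, LMNB2, SUN2 and EMD have GC contents of 61.5%, 61.4%, 60.8% and 59.97%, and their replicates within groups differed by an SD of 0.48, 0.29, 0.46 and 0.27 on the log2 CPM scale. The other 6 genes, with 37.8% to 55.2% GC, had SDs of 0.03 (SUN1) to 0.12 (LMNB1). In each of the 5 groups, the order of the 3 libraries by LMNA, LMNB2, SUN2 and EMD was their order by the mean GC content of counts. That mean, called library GC here, weights the GC of each gene's longest transcript by the gene's counts. It was not measured on reads, and more counts in GC-rich genes raise it, so it is not independent of these levels. None of the other 6 genes followed that order in more than 1 group. LMNB1, LBR, TMPO and LEMD3 each ran in the reverse order in 2 groups, and BANF1 in 1. Among all tested genes of similar level (mean log2 CPM of 4 to 8), the median SD was 0.32 for the 750 genes of 59% GC and over, against 0.11 for those under 45% and 0.08 for those of 45% to 55%. Library GC ran from 46.0% in shTXNRD1 replicate 3 to 48.1% in Tri-1 replicate 2, and its range within a group was 1.55 points in shTXNRD1 cells, 0.246 in Tri-1 cells, 0.765 in DMSO cells, 0.633 in senescent control cells and 1.36 in growing cells. Calls gained or lost, and called values moved by over 1.5 times, are therefore also given from a fit that corrects each library for GC and from a fit without the 3 libraries of lowest GC in their groups (shTXNRD1 replicate 3, DMSO replicate 1 and growing replicate 1). What made the libraries differ in GC was not tested.

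**Figure D1:**
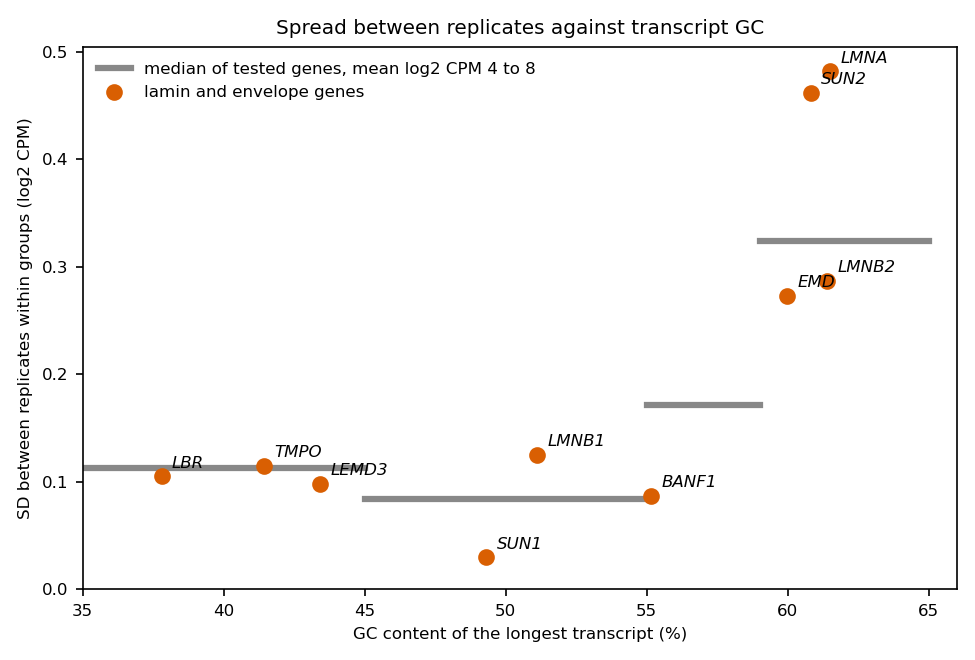
SD of log2 CPM between replicates within the 5 groups (y axis) against the GC content of the longest transcript in percent (x axis), for the 10 genes (points); grey bars are medians over tested genes of mean log2 CPM 4 to 8 in each GC range. LMNA, SUN2, LMNB2 and EMD, all near or above 60% GC, have SDs of 0.27 to 0.48, and the other 6 genes lie between 0.03 and 0.12.

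Of the 10 genes, 6 were called lower and 0 higher in senescent control cells over growing cells (edgeR quasi-likelihood F test, Benjamini-Hochberg adjusted p under 0.05 over all genes tested), where 29.5% of all tested genes were called lower and 27.4% higher. The median log2 fold change was -0.43 over the 10 genes and 0.03 over all tested genes. In shTXNRD1 cells over senescent control cells 3 were called lower and 1 higher, beside 24.8% and 25.8% of all tested genes. In Tri-1 cells over DMSO cells 3 were called lower and 0 higher, beside 12.2% and 7.64%. In DMSO cells over senescent control cells 3 were called higher and 0 lower, beside 8.36% and 7.87%. In these comparisons the medians over the 10 genes were -0.16, -0.09 and 0.09, and those over all tested genes were -0.012, 0.006 and -0.015. A test of the hairpin effect minus the Tri-1 effect called 4 of the 10 genes higher and 2 lower, beside 22.1% and 19.5% of all tested genes. With 10 genes each of these counts is coarse, and the count for the hairpin is near the background.

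**Figure D2:**
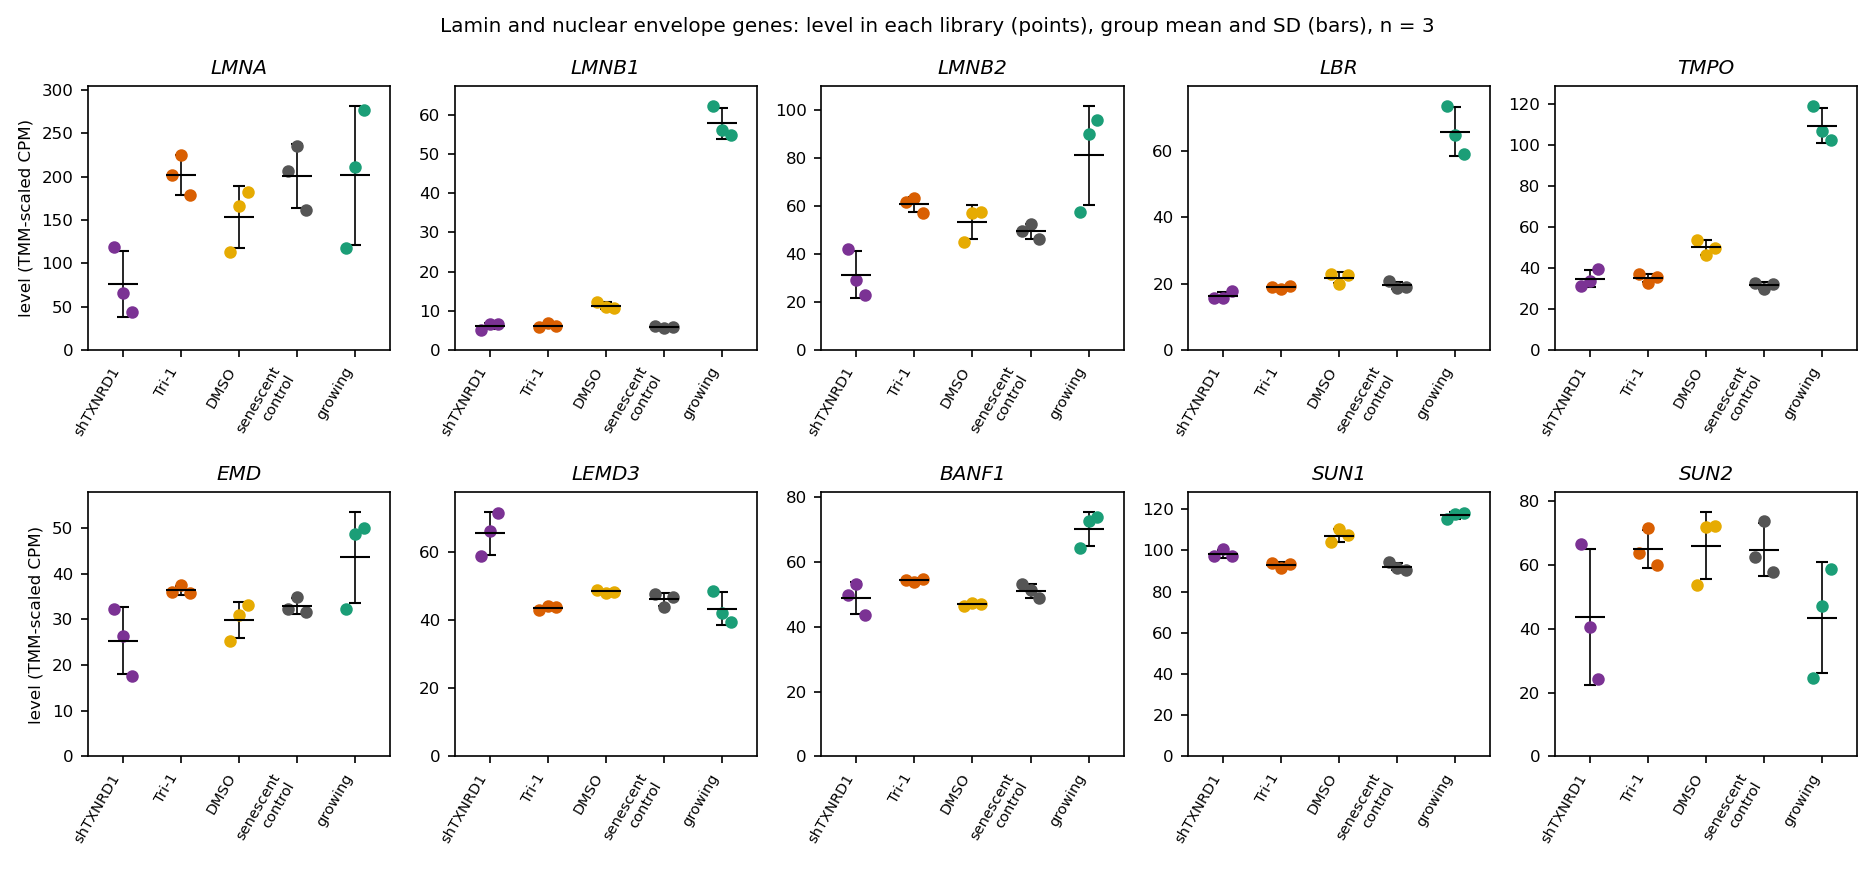
Level of each gene in TMM-scaled CPM (y axis, linear, from 0) in the 3 libraries of each group (points), with the group mean (bar) and SD (whiskers). LMNB1, LBR and TMPO are 3.37- to 9.81-fold lower in senescent control cells than in growing cells with tight replicates, whereas LMNA, LMNB2, EMD and SUN2 spread widely within shTXNRD1 and growing cells.

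LMNB1, the lamin B1 gene on chromosome 5, had 5.15, 6.56 and 6.49 CPM in shTXNRD1 cells, 5.75, 6.79 and 6.13 in Tri-1 cells, 12.2, 10.9 and 10.7 in DMSO cells, 6.20, 5.64 and 5.801 in senescent control cells and 62.3, 56.2 and 54.8 in growing cells. Every growing library lay far above every senescent one, and every DMSO library lay above all other senescent libraries, which overlapped each other. In senescent control cells over growing cells the log2 fold change was -3.29 ± 0.11 (SE, adjusted p = 4.02e-12). Against the same growing libraries it was -3.25 ± 0.11 in shTXNRD1 cells, -3.21 ± 0.10 in Tri-1 cells and -2.36 ± 0.10 in DMSO cells. Tri-1 cells had 1.80-fold less LMNB1 than DMSO cells (log2 -0.85 ± 0.10, adjusted p = 6.52e-05), and DMSO cells had 1.91-fold more than senescent control cells (0.93 ± 0.10, adjusted p = 4.05e-05). Those last comparisons share the DMSO libraries, so a high level in these 3 libraries enters both. The hairpin gave 0.05 ± 0.11 (adjusted p = 0.755, approximate 95% interval -0.17 to 0.26), and this missing call does not show equal levels. The effect of the hairpin was higher than that of Tri-1 by 0.90 ± 0.15 on the log2 scale (adjusted p = 0.000319). No alternative changed the calls on LMNB1 in any of these comparisons.

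LMNA, on chromosome 1, was per kilobase the most abundant lamin transcript on average in every group, with 119, 66.1 and 43.8 CPM in shTXNRD1 cells, 202, 225 and 179 in Tri-1 cells, 113, 166 and 182 in DMSO cells, 206, 235 and 161 in senescent control cells and 117, 211 and 277 in growing cells. The shTXNRD1 libraries lay below all senescent control libraries, and all other pairs of groups overlapped except that the Tri-1 libraries also lay above the shTXNRD1 ones. The mean was 76.2 ± 38.5 CPM in shTXNRD1 cells and 201 ± 37.1 in senescent control cells (SD, n = 3 each). The log2 fold change was -1.40 ± 0.36 (adjusted p = 0.00607), and LMNA was called lower in all 17 alternatives of this comparison, with -1.01 ± 0.14 after the GC correction. The effect of Tri-1 over DMSO was 0.40 ± 0.35 (adjusted p = 0.480, interval -0.29 to 1.09). The hairpin effect was lower than the Tri-1 effect by a log2 difference of -1.79 ± 0.50 (adjusted p = 0.0130).

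In senescent control cells LMNA averaged 201 CPM, against 202 ± 80.2 CPM in growing cells (SD, n = 3). Its fold change was -0.01 ± 0.35 (adjusted p = 0.989, interval -0.69 to 0.68), which leaves changes of over 1.5-fold in either direction within the interval. After the GC correction it was called lower, at -0.41 ± 0.13 (adjusted p = 0.0175). Without the 3 libraries of lowest GC it was not called (-0.28 ± 0.26, adjusted p = 0.387).

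LMNB2, the other B-type lamin gene, on chromosome 19, had 42.0, 29.4 and 22.8 CPM in shTXNRD1 cells, 62.0, 63.2 and 57.1 in Tri-1 cells, 45.1, 57.1 and 57.5 in DMSO cells, 49.6, 52.6 and 46.4 in senescent control cells and 57.5, 90.2 and 96.0 in growing cells. The shTXNRD1 libraries were all below the senescent control ones, which were all below the growing ones. In senescence it fell, with a log2 fold change of -0.71 ± 0.21 (adjusted p = 0.0114), but without growing replicate 3 the call was lost (-0.57, adjusted p = 0.0531), and after the GC correction the change was -1.14 ± 0.05. With the hairpin it fell further (-0.66 ± 0.21, adjusted p = 0.0217). That call was lost in 6 of the 17 alternatives, among them the fit of the compared groups alone (adjusted p = 0.103) and the fits without senescent control replicate 1 (0.0520) or 2 (0.0671) or shTXNRD1 replicate 2 (0.0735) or 3 (0.0882), and the GC correction reduced it to -0.24 ± 0.05 (adjusted p = 0.000486). LMNB2 stood at 0.19 ± 0.21 in Tri-1 over DMSO (adjusted p = 0.579) and at 0.11 ± 0.21 in DMSO over senescent control (adjusted p = 0.817), where it was called higher after the GC correction (0.18 ± 0.05, adjusted p = 0.00815).

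The balance of the lamins is shown by ratios within a library, per kilobase of exon, which do not depend on library scaling. LMNB1 stood at 0.0834, 0.191 and 0.285 of LMNA in shTXNRD1 cells, 0.0549, 0.0580 and 0.0659 in Tri-1 cells, 0.209, 0.126 and 0.113 in DMSO cells, 0.0578, 0.0462 and 0.0692 in senescent control cells and 1.02, 0.512 and 0.381 in growing cells. The senescent libraries of all 4 groups lay below the growing ones without overlap, and the Tri-1 and senescent control libraries overlapped at the bottom. The mean log2 ratio was -2.59 in shTXNRD1 cells, where LMNA was low, -4.07 in Tri-1 cells, -2.80 in DMSO cells, -4.13 in senescent control cells and -0.78 in growing cells. Of the B-type genes, LMNB2 was the more abundant in all 12 senescent libraries, with mean log2 ratios of LMNB1 over LMNB2 of -1.76 in shTXNRD1 cells, -2.71 in Tri-1 cells, -1.66 in DMSO cells and -2.49 in senescent control cells. In growing cells the B-type genes were near parity per kilobase, at 0.12 ± 0.50 (SD, n = 3), against -0.46 ± 0.50 in plain counts. Levels of LMNA and LMNB2 followed library GC within all 5 groups. Those of LMNB1 followed it in 0 groups and ran in the reverse order in 2. The SD of the log2 ratio LMNB1 over LMNA was 0.91 in shTXNRD1 cells and 0.73 in growing cells, and that of LMNB2 over LMNA was 0.28 and 0.25.

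**Figure D3:**
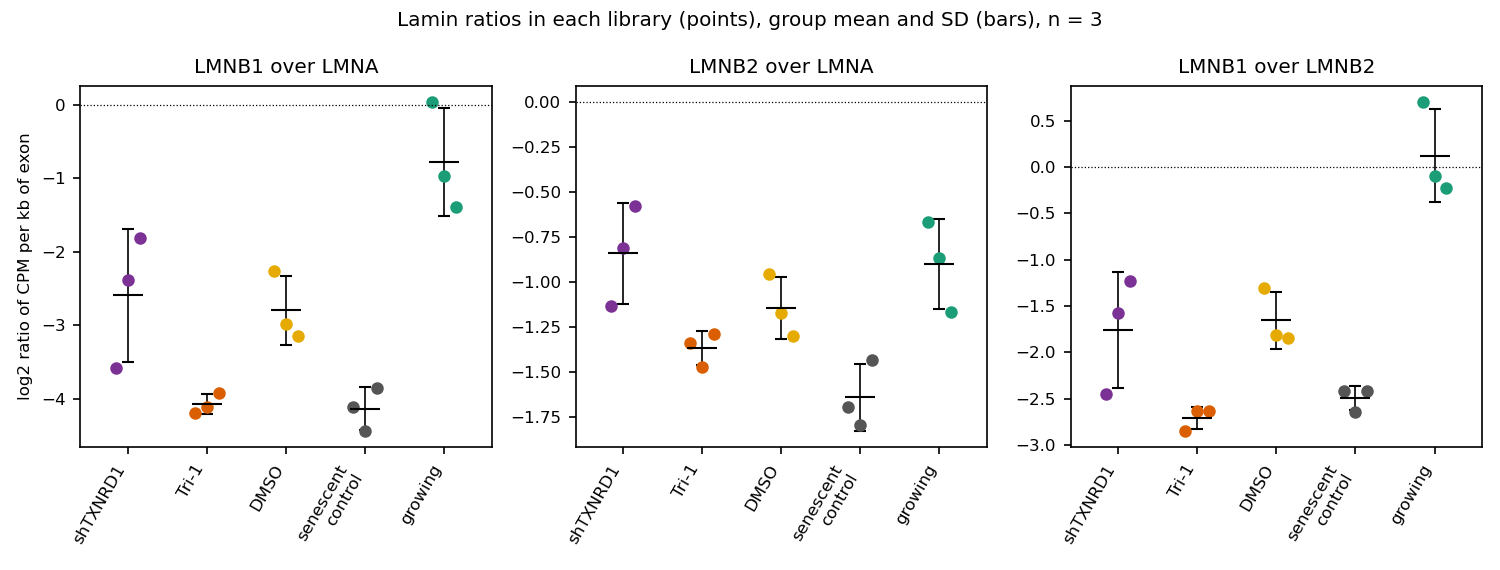
Log2 ratio of the levels per kilobase of exon of LMNB1 over LMNA, LMNB2 over LMNA and LMNB1 over LMNB2 (y axis; 0 is parity) in each library (points) with group mean and SD (bars). LMNB1 over LMNA is lowest in Tri-1 and senescent control cells, with means of -4.07 and -4.13, higher in shTXNRD1 and DMSO cells, and highest in growing cells.

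LBR, on chromosome 1, had 15.6, 15.6 and 17.6 CPM in shTXNRD1 cells, 18.9, 18.2 and 19.3 in Tri-1 cells, 22.9, 19.98 and 22.5 in DMSO cells, 20.7, 18.8 and 19.0 in senescent control cells and 73.6, 64.7 and 58.9 in growing cells. All growing libraries were more than 2-fold above all senescent ones. The log2 fold change in senescence was -1.75 ± 0.09 (adjusted p = 5.9e-10). With the hairpin LBR was a further 1.198-fold lower (-0.26 ± 0.09, adjusted p = 0.0269), a call that was lost in 6 of 17 alternatives (adjusted p of 0.0563 to 0.0921), including those without senescent control replicate 1 or shTXNRD1 replicate 1 or 2, and that stood at -0.43 ± 0.06 after the GC correction. LBR was -0.21 ± 0.09 in Tri-1 over DMSO (adjusted p = 0.118) and 0.16 ± 0.09 in DMSO over senescent control (adjusted p = 0.265). In Tri-1 over DMSO the libraries of the groups did not overlap, and 2 of 17 alternatives called it lower. These were the compared groups alone (-0.22, adjusted p = 0.0396) and a stricter filter on low genes (-0.24, adjusted p = 0.0372). The hairpin effect minus the Tri-1 effect was -0.05 ± 0.13 for LBR (adjusted p = 0.781) and was called lower after the GC correction (-0.35 ± 0.08, adjusted p = 0.00225). Against the same growing libraries it was -2.01 in shTXNRD1 cells, -1.80 in Tri-1 cells and -1.59 in DMSO cells. LBR therefore fell with LMNB1 and TMPO in senescence. Unlike them, in the model of all libraries it did not pass the threshold in Tri-1 over DMSO or in DMSO over senescent control. The difference between these genes was not tested.

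LBR is also a sterol reductase, and 10 other genes of late cholesterol synthesis were followed beside it. In senescence 7 of these were called higher and 1 lower (median log2 0.52), with NSDHL, a sterol dehydrogenase, at 0.75 ± 0.05. Over all tested genes 27.4% were called higher and 29.5% lower there. With the hairpin 8 of the 10 were called lower and 0 higher (median -0.41), beside 24.8% and 25.8%. In Tri-1 over DMSO 2 were called higher and 0 lower (median 0.30), beside 7.64% and 12.2%. In DMSO over senescent control 0 were called higher and 8 lower (median -0.68), beside 8.36% and 7.87%, with NSDHL at -0.60 ± 0.05 in DMSO cells over senescent control cells.

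TMPO, which encodes lamina-associated polypeptide 2, lies on chromosome 12. It had 31.1, 33.8 and 39.5 CPM in shTXNRD1 cells, 36.9, 32.8 and 35.6 in Tri-1 cells, 53.6, 46.5 and 50.02 in DMSO cells, 32.8, 29.8 and 32.1 in senescent control cells and 119, 107 and 102.6 in growing cells. As for LMNB1, growing libraries were highest, DMSO libraries came next without overlap, and the other senescent libraries overlapped. It fell in senescence (log2 -1.79 ± 0.09, adjusted p = 7.71e-10). It was lower in Tri-1 than in DMSO cells (-0.51 ± 0.09, adjusted p = 0.00142) and higher in DMSO than in senescent control cells (0.66 ± 0.09, adjusted p = 0.000243), and these share the DMSO libraries. The hairpin effect was 0.14 ± 0.09 (adjusted p = 0.226, interval -0.04 to 0.32). The hairpin effect exceeded the Tri-1 effect by 0.65 ± 0.13 (adjusted p = 0.00126), or by 0.41 ± 0.07 after the GC correction. TMPO shares 713 exon bases with its antisense gene TMPO-AS1, which had 207 counts over all 15 libraries, and whether counting used the strand is not given in the sources used here. Its processed pseudogenes TMPOP1 and TMPOP2 had 2 and 13 counts in all.

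LEMD3, the gene of MAN1, which also restrains SMAD signalling, lies on chromosome 12 as well. It had 59.04, 66.2 and 71.6 CPM in shTXNRD1 cells, 42.9, 44.2 and 43.9 in Tri-1 cells, 49.0, 48.1 and 48.5 in DMSO cells, 47.6, 44.0 and 46.9 in senescent control cells and 48.7, 42.2 and 39.5 in growing cells. The shTXNRD1 libraries lay above all 12 others, which fell within a narrow band. Its rise with the hairpin was 1.42-fold (log2 0.51 ± 0.08, adjusted p = 0.000137) and was called in all 17 alternatives, at 0.37 ± 0.04 after the GC correction. It was the only one of the 10 genes called higher with the hairpin in the model of all libraries. Tri-1 gave -0.15 ± 0.08 over DMSO (adjusted p = 0.224), and the hairpin effect exceeded that of Tri-1 by 0.66 ± 0.12 (adjusted p = 0.000467). In senescence LEMD3 stood at 0.09 ± 0.08 (adjusted p = 0.379) and was called higher after the GC correction (0.23 ± 0.04, adjusted p = 0.000117), without the 3 libraries of lowest GC (0.18, adjusted p = 0.0227) and with a stricter filter on low genes (0.17, adjusted p = 0.0463).

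EMD, the emerin gene on the X chromosome, had 32.3, 26.3 and 17.5 CPM in shTXNRD1 cells, 35.9, 37.5 and 35.7 in Tri-1 cells, 25.4, 31.0 and 33.1 in DMSO cells, 32.4, 34.9 and 31.7 in senescent control cells and 32.2, 48.6 and 50.04 in growing cells. Growing replicate 1, the growing library of lowest GC, overlapped the senescent control libraries, and the other growing libraries lay above them. EMD stood at -0.40 ± 0.20 in senescence and was not called (adjusted p = 0.0984). It was called lower without growing replicate 1 (-0.58, adjusted p = 0.0194), without the 3 libraries of lowest GC (-0.58 ± 0.07, adjusted p = 6.74e-06) and after the GC correction (-0.77 ± 0.05, adjusted p = 1.92e-10). With the hairpin it was -0.38 ± 0.20 (adjusted p = 0.136), called without shTXNRD1 replicate 1 (-0.59, adjusted p = 0.0259), and the value after the GC correction was -0.03 ± 0.05. Tri-1 over DMSO gave 0.28 ± 0.20 (adjusted p = 0.356). The hairpin effect minus the Tri-1 effect was -0.66 ± 0.28 (adjusted p = 0.0770) and was called lower without the 3 libraries of lowest GC (-0.35 ± 0.11, adjusted p = 0.0182).

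BANF1, the partner of the LEM domain, lies on chromosome 11 and had 49.8, 53.3 and 43.7 CPM in shTXNRD1 cells, 54.6, 53.9 and 54.9 in Tri-1 cells, 46.4, 47.5 and 47.1 in DMSO cells, 53.1, 51.4 and 48.8 in senescent control cells and 64.3, 72.7 and 73.9 in growing cells. All growing libraries lay above all senescent ones. BANF1 was 1.37-fold lower in senescent control cells (log2 -0.46 ± 0.07, adjusted p = 0.000111). It stood at 0.21 ± 0.07 in Tri-1 over DMSO (adjusted p = 0.0607), although the libraries of the groups did not overlap, and was called there in the fit of the compared groups alone (0.20, adjusted p = 0.00683) and without the 3 libraries of lowest GC (0.20 ± 0.05, adjusted p = 0.0107). With the hairpin it was -0.06 ± 0.07 (adjusted p = 0.511, interval -0.21 to 0.08). The hairpin effect minus the Tri-1 effect was -0.275 ± 0.106 for BANF1 (adjusted p = 0.0501). That difference was called lower in 8 of 23 alternatives and stood at -0.007 ± 0.077 after the GC correction. The BANF1 pseudogene BANF1P3 held 232 counts over the 15 libraries, and how the counting shared reads between the copies is not given in the sources used here.

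SUN1, on chromosome 7, had the tightest replicates of the 10 genes, with 97.1, 101 and 97.2 CPM in shTXNRD1 cells, 93.7, 91.5 and 93.4 in Tri-1 cells, 104, 110 and 107 in DMSO cells, 94.3, 91.6 and 90.6 in senescent control cells and 115, 117 and 118 in growing cells. The growing libraries were highest, then the DMSO libraries and then the shTXNRD1 libraries, each above the next, and Tri-1 and senescent control libraries overlapped. SUN1 was 1.27-fold lower in senescence (log2 -0.34 ± 0.04, adjusted p = 1.48e-05). It was lower in Tri-1 than in DMSO cells (-0.21 ± 0.04, adjusted p = 0.00547) and higher in DMSO than in senescent control cells (0.22 ± 0.04, adjusted p = 0.00431). Both calls were lost with no filter on low genes, at adjusted p = 0.0803 and 0.0732. The hairpin gave 0.09 ± 0.04 (adjusted p = 0.103), and was called with upper-quartile scaling (0.14, adjusted p = 0.0173) and in the fit of the compared groups alone (0.16, adjusted p = 0.0491). SUN1 shares 1842 of its 11811 exon bases with GET4 on the same strand, so reads there could be split between them.

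SUN2, on chromosome 22, had 66.4, 40.4 and 24.2 CPM in shTXNRD1 cells, 63.6, 71.5 and 60.01 in Tri-1 cells, 53.8, 72.0 and 72.1 in DMSO cells, 62.4, 73.9 and 57.8 in senescent control cells and 24.5, 47.2 and 58.7 in growing cells. The shTXNRD1 and growing libraries each spanned a range of more than 2-fold and overlapped all other groups, except that every growing library lay below every Tri-1 library. SUN2 passed the threshold in none of the 8 comparisons, with 0.58 ± 0.34 in senescence (adjusted p = 0.163, interval -0.08 to 1.23) and -0.57 ± 0.34 with the hairpin (adjusted p = 0.183, interval -1.23 to 0.09). Without shTXNRD1 replicate 1 it was called lower with the hairpin (-1.01, adjusted p = 0.0214), and after the GC correction that value was -0.21 ± 0.13. SUN2 shares 680 of its 6489 exon bases with GTPBP1 on the opposite strand.

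**Figure D4:**
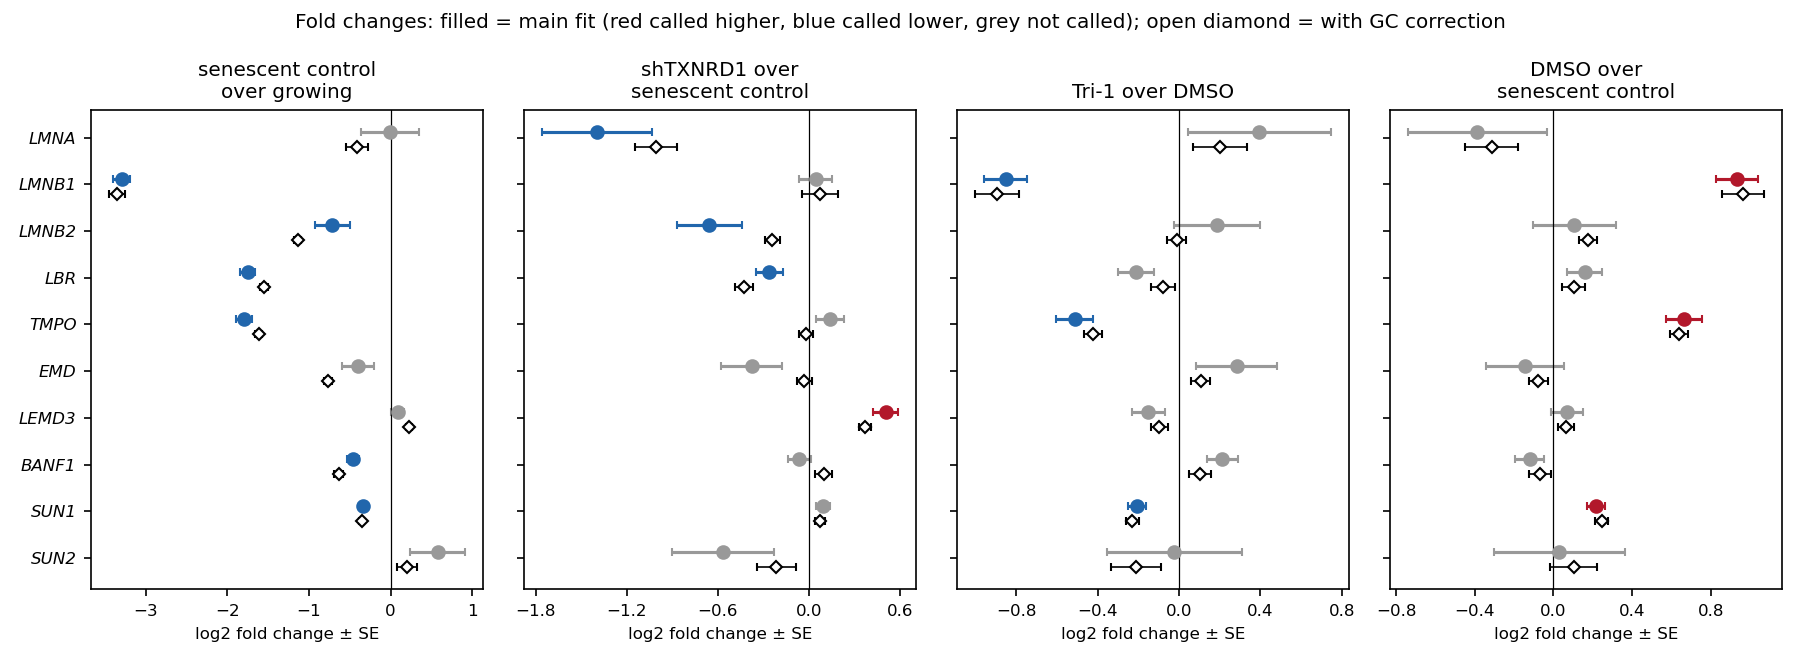
Log2 fold change ± SE (x axis) of the 10 genes (rows) in 4 comparisons; filled circles are the fit of all libraries (red called higher, blue called lower, grey not called) and open diamonds the fit with the GC correction. LMNB1, LBR and TMPO lie far left in senescence, LMNA lies left and LEMD3 right with the hairpin, and LMNB1 and TMPO lie left in Tri-1 over DMSO and right in DMSO over senescent control.

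Levels can be ordered between genes per kilobase of exon, and the orders depend on the length used. That length joins all annotated exons of a gene and can exceed that of the transcripts present. SUN1, with 11811 exon bases, had 92.1 CPM in senescent control cells against 49.5 for LMNB2, and ranks below it per kilobase. In senescent control cells the order was BANF1 (31.1 ± 1.32 CPM per kb, SD, n = 3), LMNA (28.7 ± 5.31), EMD (16.3 ± 0.842), SUN2 (9.96 ± 1.28), LMNB2 (9.12 ± 0.570), LEMD3 (8.30 ± 0.340), SUN1 (7.80 ± 0.163), LBR (3.71 ± 0.197), TMPO (3.67 ± 0.183) and LMNB1 (1.62 ± 0.0806). Among neighbours in this order, BANF1 and LMNA, SUN2 and LMNB2, and LBR and TMPO differed by less than the larger of their SDs. In growing cells the order was BANF1 (42.7 ± 3.16), LMNA (28.9 ± 11.5), EMD (21.6 ± 4.91), LMNB1 (15.9 ± 1.11), LMNB2 (14.95 ± 3.83), TMPO (12.8 ± 1.02), LBR (12.502 ± 1.41), SUN1 (9.90 ± 0.137), LEMD3 (7.81 ± 0.858) and SUN2 (6.70 ± 2.69). There LMNA and EMD, the run from LMNB1 to LBR, and LEMD3 and SUN2 differed by less than the larger of their SDs. Per kilobase LMNB1 was thus the tenth of the 10 genes in level in senescent control cells and the fourth in growing cells.

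Against the growing libraries, which these comparisons share, 9 of the 10 genes were called in shTXNRD1 cells (62.9% of all tested genes), 5 in Tri-1 cells (62.5%) and 7 in DMSO cells (58.4%). LEMD3 in shTXNRD1 cells, at 0.59 ± 0.08, was the one gene called higher in any of them in the model of all libraries. The shTXNRD1 cells had 8 genes called lower, beside 30.5% of all tested genes, including LMNA at -1.40 ± 0.36 and EMD at -0.78 ± 0.20, beside -0.01 ± 0.35 and -0.40 ± 0.20 in senescent control cells. These LMNA, EMD and SUN1 calls in shTXNRD1 cells were lost when those groups were fitted alone (adjusted p = 0.0546, 0.0834 and 0.0656). The GC correction added calls in the other groups. In Tri-1 cells over growing cells LMNA (-0.52 ± 0.13), LMNB2 (-0.97 ± 0.05) and EMD (-0.74 ± 0.05) were then called lower and LEMD3 higher (0.19 ± 0.04), and BANF1 moved to -0.60 ± 0.05, against -0.37 ± 0.07 without the correction. In DMSO cells over growing cells LMNA was then called lower (-0.73 ± 0.13, adjusted p = 0.000499), LEMD3 (0.29 ± 0.04) and SUN2 (0.30 ± 0.12, adjusted p = 0.0468) were called higher, and LMNB2 and EMD moved to -0.96 ± 0.05 and -0.84 ± 0.05, against -0.61 ± 0.21 and -0.54 ± 0.20. Without the 3 libraries of lowest GC, LMNB2 (-0.62 ± 0.11) and EMD (-0.44 ± 0.07) were called lower in Tri-1 cells and LEMD3 higher in DMSO cells (0.24 ± 0.07). Other alternatives lost calls in DMSO cells over growing cells. LMNB2 was not called in 6 of 17, EMD in 7 and SUN1 in 9, with adjusted p up to 0.105, 0.115 and 0.594.

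Genes with the most similar pattern over the 5 group means were sought among 11902 tested genes. For LMNB1 they were CCNA2, NEK2 and NUF2, a cyclin, a centrosomal kinase and a kinetochore protein, with root mean square differences of 0.13, 0.18 and 0.18 on the log2 scale. CCNA2 averaged 7.98 CPM in shTXNRD1 cells, 8.51 in Tri-1 cells, 13.7 in DMSO cells, 8.11 in senescent control cells and 62.3 in growing cells, the same order as LMNB1 but for the lowest groups. For LBR they were TUB, NR1H3 and STIL (0.04, 0.05 and 0.05), and for LMNA they were CAVIN3, PDLIM2 and ELAPOR1 (0.07, 0.08 and 0.09). With Pearson's r over the 15 libraries the nearest genes to LMNB1 were CENPF, SMC4 and PARPBP and those to LMNA were MCRS1, GMPPB and MYH9, none shared with the first measure, and for LBR STIL was shared. These are descriptions over libraries of which the 3 growing ones lie far from the rest for LMNB1 and LBR.

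Proliferation genes were followed beside LMNB1. All 12 were called lower in senescence (29.5% of all tested genes), with a median log2 fold change of -2.53 and MKI67 at -2.81 ± 0.07. In Tri-1 over DMSO 7 of 12 were called lower and 0 higher, beside 12.2% and 7.64% (MKI67 at -0.74 ± 0.07). In DMSO over senescent control 7 were called higher and 1, PCNA, lower, beside 8.36% and 7.87% (MKI67 at 0.81 ± 0.07). With the hairpin 6 were called lower and 2 higher, beside 24.8% and 25.8% (MKI67 at -1.14 ± 0.07, AURKA at 0.80 ± 0.08), whereas LMNB1 was at 0.05. The part of proliferation in the levels of LMNB1 was not tested.

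The counts of the lists that follow stand beside 27.4% of all tested genes called higher and 29.5% lower in senescence, 25.8% and 24.8% with the hairpin and 7.64% and 12.2% in Tri-1 over DMSO. Of 29 nuclear pore subunits tested, 19 were called lower and 1 higher in senescence (median log2 -0.48), with NUP107 at -1.07 ± 0.10 and POM121, a membrane-anchored nucleoporin, at 0.31 ± 0.07. With the hairpin 13 were called higher and 4 lower (median 0.11), with NUP133, a scaffold subunit, at 0.65 ± 0.10 and NUP58, a central channel subunit, at -0.59 ± 0.08. Tri-1 over DMSO had 2 called higher and 2 lower. Of 12 heterochromatin proteins and lamin or LBR partners, 7 were called lower and 1 higher in senescence (median -0.48), with CBX1, a heterochromatin protein 1 gene, at -1.05 ± 0.09. With the hairpin 5 of these were called lower and 2 higher, with CBX5, another heterochromatin protein 1 gene, at -0.74 ± 0.09 and SETDB1, a histone methyltransferase, at 0.63 ± 0.07. None of the 12 was called in Tri-1 over DMSO or in DMSO over senescent control.

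Of 7 nesprins and torsin-associated genes tested, 3 were called higher and 1 lower in senescence, beside 27.4% and 29.5% of all tested genes. So few genes make these counts, and those of lamin processing, coarse. The lower one was SYNE2, the nesprin-2 gene and an outer partner of the SUN proteins, at -1.56 ± 0.09, which was also lower in Tri-1 over DMSO (-0.68 ± 0.09) and higher in DMSO over senescent control (0.58 ± 0.09). With the hairpin 1 was called higher, TOR1AIP1 (0.48 ± 0.08), and 2 lower, led by SYNE1 (-0.51 ± 0.05). Of 6 enzymes and factors of lamin processing, 2 were called higher and 1 lower in senescence, and 4 higher and 1 lower with the hairpin, beside 25.8% and 24.8%. NARF, which binds prelamin A, was at 1.26 ± 0.07 in senescence and at 0.49 ± 0.07 with the hairpin, and ICMT, which methylates the farnesylated end of lamins, was at -0.11 ± 0.04 and -0.49 ± 0.04. None of the 6 was called in Tri-1 over DMSO or in DMSO over senescent control.

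Of 14 other genes listed for the inner membrane, not all of them membrane proteins, 4 were called higher and 6 lower in senescence. Over all tested genes 27.4% were called higher and 29.5% lower there. With the hairpin 1 was called higher and 4 lower, beside 25.8% and 24.8%, so the 4 higher in senescence and the 4 lower with the hairpin lie near the background. LPIN1, a phosphatidate phosphatase, was at 0.82 ± 0.05 in senescence, -0.47 ± 0.05 with the hairpin, 0.53 ± 0.05 in Tri-1 over DMSO and -0.50 ± 0.05 in DMSO over senescent control. TMEM43, the LUMA gene, was at -0.61 ± 0.05 in senescence and at 0.38 ± 0.05 with the hairpin. Of 14 genes of envelope breakdown and resealing, 2 were called higher and 5 lower in senescence, and 4 and 4 with the hairpin, where the same shares apply. The extremes by p were the mitotic CCNB1 at -2.47 ± 0.08 in senescence and CDK1 at -1.39 ± 0.11 with the hairpin, and on the higher side CHMP7, an ESCRT-III protein that seals the envelope, at 0.36 ± 0.05 in senescence.

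**Figure D5:**
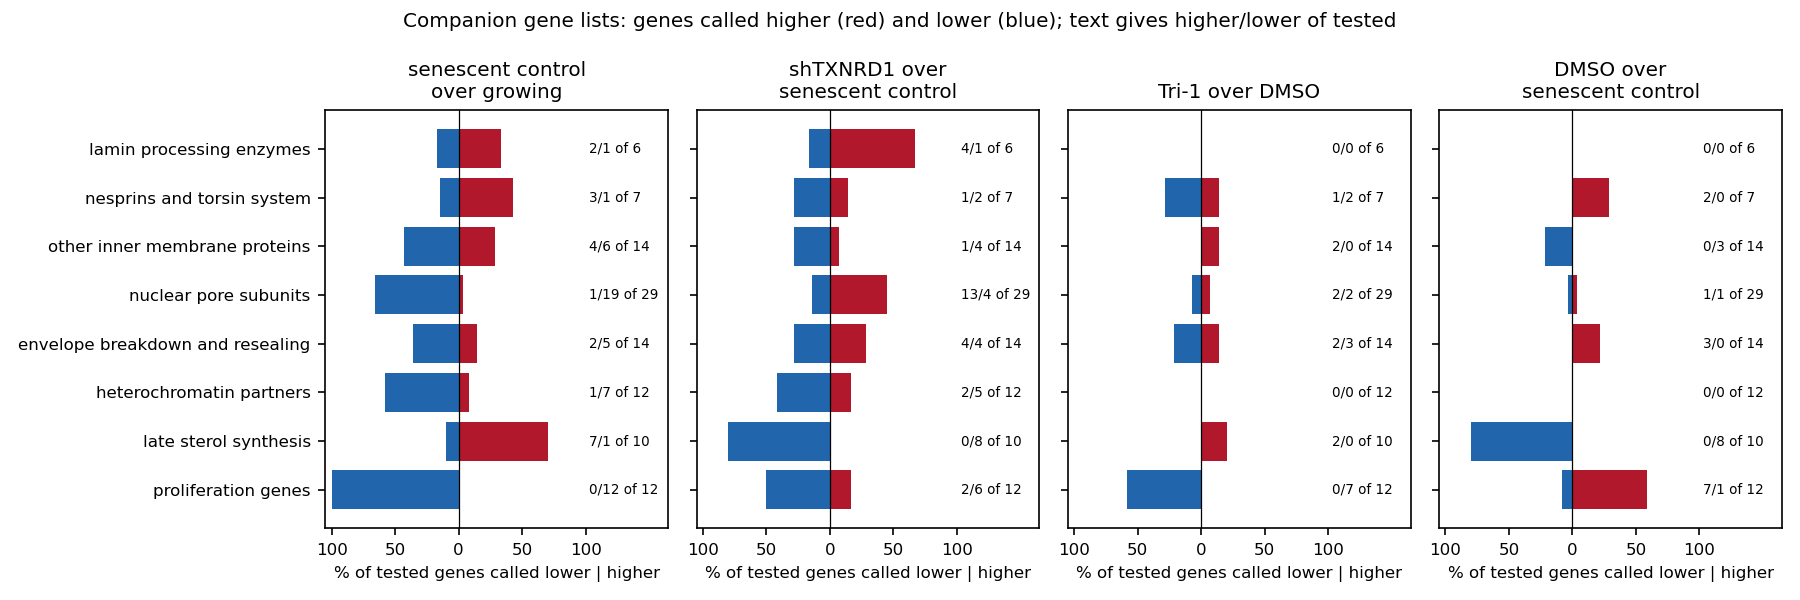
Share of the tested genes of each companion list that were called higher (red, to the right) and lower (blue, to the left) in percent (x axis) in 4 comparisons; the figures at the right give the numbers called higher and lower of those tested. Nuclear pore subunits and proliferation genes lean lower in senescence, sterol synthesis genes lean higher in senescence and lower with the hairpin and with DMSO.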

How the data were processed

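The values are raw counts per Ensembl gene in whole numbers, deposited by the authors as 1 table for 15 libraries of IMR90 cells. Per the submitters' processing notes the tools were RSEM 1.2.3 and DESeq2 and the builds hg19 and mm10, without roles. Aligner, gene annotation and strand setting: not given in the sources used here. Whether the whole numbers are rounded RSEM estimates is not stated. Symbols were found for 52301 of 57736 genes, and PECAM1 was not matched.

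From these counts, edgeR 4.0.16 in R 4.3.3 scaled libraries by TMM, kept 15994 genes with filterByExpr and fitted 1 quasi-likelihood model (robust) over all 15 libraries with a coefficient per group and 10 residual degrees of freedom. P-values are two-sided and adjusted by Benjamini-Hochberg over all genes tested, with calls under 0.05. "Rose", "fell", "called" and similar words refer to this threshold, errors of log2 fold changes are SE, and approximate 95% intervals assume a normal error. Levels are TMM-scaled CPM. The growing, senescent control and DMSO libraries each serve several comparisons. Transcript GC and exon length came from GENCODE v29 on GRCh38, another build than the files', so no gene coordinates are given from it, and 96.5% of tested genes had a GC value. The GC correction used a lowess smooth (span 0.3) of log ratios on GC in each library as an offset. The log ratios were taken to the mean of all 15 libraries, so differences between groups that go with GC are removed too. The offset was treated as known, so the SE after the correction leaves out its error.

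Alternatives were RLE and upper-quartile scaling, no filter and a mean CPM of at least 5, leaving out genes above 1% of a library, DESeq2 1.42.0, limma-voom (limma 3.58.1), the compared groups alone, the GC correction, a replicate block and leaving out each library. A fit without the 3 libraries of lowest GC in their groups was added after the data were seen. No 2 libraries of a group held identical values. The chi-square per gene between replicates, near 1 for counting noise alone, ran from 1.61 (DMSO replicates 2 and 3) to 50.01 (shTXNRD1 replicates 1 and 3). It was 1.84 to 3.28 within Tri-1 cells. The model gives each gene 1 estimate of spread for all groups, although the groups differ in spread. The model was also run on counts simulated from its own estimates of spread. These held no GC difference between libraries and the same spread in every group, so that run does not bear on either. Named genes are all 10 genes, the called gene of smallest p in each direction from each companion list (not all of these are printed), and the 3 genes of most similar pattern for LMNB1, LBR and LMNA. The members and lists were chosen with earlier results of these data known. Single values of 1 gene of the sterol list are not reported here.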

Additional observations from a re-analysis of the deposited data

Results flagged for a closer look

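For 6 of the 10 genes the effect of the TXNRD1 hairpin (shTXNRD1 over senescent control) differed from the effect of Tri-1 (over DMSO) by a test of the difference itself in the edgeR model. Over all tested genes this test called 22.1% higher and 19.5% lower for the hairpin, beside 4 and 2 of the 10, so with 10 genes the count is not far from the background. These comparisons share no library. LMNB1 differed by 0.90 ± 0.15 on the log2 scale (SE, adjusted p = 0.000319), TMPO by 0.65 ± 0.13 (adjusted p = 0.00126), LEMD3 by 0.66 ± 0.12 (adjusted p = 0.000467) and SUN1 by 0.30 ± 0.06 (adjusted p = 0.00197), all higher for the hairpin. LMNA differed by -1.79 ± 0.50 (adjusted p = 0.0130) and LMNB2 by -0.85 ± 0.30 (adjusted p = 0.0390), both lower for the hairpin.

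For LMNB1, TMPO and SUN1 the difference came with a level in DMSO cells above that of senescent control cells, at a log2 fold change of 0.93 ± 0.10, 0.66 ± 0.09 and 0.22 ± 0.04, while Tri-1 cells and senescent control cells had mean levels of 6.22 and 5.88 CPM for LMNB1, 35.1 and 31.6 CPM for TMPO and 92.9 and 92.1 CPM for SUN1. For TMPO the SD was 2.10 CPM in Tri-1 cells and 1.58 CPM in senescent control cells (n = 3 each). Tri-1 cells were not tested against senescent control cells. The hairpin and Tri-1 were each set against their own control, the control condition and DMSO, and the part of the DMSO level in these differences was not tested. For LMNA, LEMD3 and LMNB2 the difference came with a change in shTXNRD1 cells. The LMNB2 difference was lost in 13 of 23 alternatives and stood at -0.23 ± 0.07 after the GC correction (adjusted p = 0.00990) and at -0.56 ± 0.17 without the 3 libraries of lowest GC in their groups (adjusted p = 0.0211), and the other 5 were called in every alternative run.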

How the results depend on the processing

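Of the values for single genes and the count of genes with a GC box, 1324 kept their side of the threshold under the alternatives or, for that count, did not move. These include changes of sign between fits that both had no call. A further 43 came to pass the threshold, 53 no longer passed it and 1 turned with a call under the alternative. Of the counts and ratios that answer a comparison, 312 stayed within 1.5 times or within their spread and 14 moved. LMNA in Tri-1 over growing cells stood at -0.52 with the GC correction (adjusted p = 0.00431), against 0.00 without it. With no filter 2 of the 10 genes were called with the hairpin, in place of 4, and 4 in DMSO over growing cells, in place of 7. With the compared groups alone 6 were called in Tri-1 over DMSO in place of 3 (LBR, LEMD3 and BANF1 added), with 5381 of all genes in place of 3176, and 4 in DMSO over growing cells. With the GC correction 9 were called in Tri-1 over growing cells in place of 5, and over all genes 5438 in Tri-1 over DMSO and 5204 in DMSO over senescent control in place of 2595, or 3981 without the 3 libraries of lowest GC. The cause was not tested for any of these.

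Leaving out 1 library gave 2 to 5 of the 10 genes called with the hairpin (2 without senescent control replicate 1 or shTXNRD1 replicate 2) and 4 to 8 in DMSO over growing cells (4 without DMSO replicate 1 or growing replicate 2 or 3). Same-numbered libraries of different groups deviated with correlations of -0.611 to 0.423, of which 6 of 30 were over 0.1. In 1 of 10 pairs of groups, growing and DMSO cells, all 3 were over 0.1 (0.113 to 0.423). In 19 of 60 cases, each a library set against the 3 of another group, the best correlation was with its own number. The numbers were not taken to pair libraries across the 5 groups. With the replicate block 8754 genes in place of 9108 were called in senescence and 8922 in place of 9339 in DMSO over growing cells, and 5 of the 10 genes in place of 6 for the hairpin minus Tri-1 effect (LMNB2 at adjusted p = 0.0628). Counts of the 10 genes in the other 7 comparisons equalled those without the block. Pearson's r shared 1 of 3 similar genes for LBR and 0 for LMNB1 and LMNA. With windows of 100 bases 3 genes held CCAAT, 0 TTTGAA and 1 an E2F spelling. At most 153 counts per library limit LMNB1 in senescent cells other than DMSO, and 3 libraries a group limit all results.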
